A study of Mus musculus with 6 samples.

Results

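Scavenger and apoptotic-cell uptake receptors were followed through RANKL-driven osteoclast formation in mouse bone marrow monocytes. The set holds 10 genes, taken by gene name from the 28795 genes of the deposited table. They are Marco, Msr1, Mrc1, Cd163, Stab1, Cd36, Mertk, Axl, Tyro3 and Timd4. The series asked how Vsig4, a complement receptor of macrophages, changes during osteoclast formation. Bone marrow monocytes, the precursors of macrophages and osteoclasts, were kept in medium with 10% serum and M-CSF (50 ng/ml), the cytokine on which they depend, at both time points. RANKL, the osteoclast-inducing cytokine, was used at 50 ng/ml. RNA was sequenced from 3 libraries at day 0 and 3 libraries at day 5. The treatment label reads RANKL for both groups, and the time label separates them. No day 5 culture in M-CSF alone was analysed here, so RANKL and time in culture cannot be told apart. Genotype, strain, age and sex are not given in the sources used here, nor whether replicate libraries stem from different animals or cultures. The p-values therefore measure only the spread between these libraries, which may be technical.

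Scavenger receptors bind modified lipoproteins, bacteria, glycoproteins and cell debris and carry them into the cell. Phagocytes also clear dying cells, which expose phosphatidylserine on their surface. The TAM receptor kinases, Tyro3, Axl and Mertk, recognise that lipid through the bridging proteins Gas6 and Pros1, while TIM-4, encoded by Timd4, binds it directly. Tissue macrophages are rich in many of these receptors, and osteoclasts arise from the same precursors.

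The library totals ran from 64616609 to 82721513 counts. One gene model, CT010467, held 4.09% of the counts of day 0 replicate 1 and 0.158% to 0.507% in the other libraries, and without that library the same number of receptors, 7, was called lower. Macrophage and osteoclast markers were read as a check on the label. The macrophage markers Adgre1, Csf1r, Cd68, Lyz2, Itgam, Fcgr1 and Cd14 were all above the filter on low values. Their summed level was 19502 to 22979 CPM (counts scaled to a common library total after TMM normalization) at day 0 and 7499 to 8855 CPM at day 5, and 5 of the 7 were called lower. Most of that sum was Lyz2, encoding lysozyme, at 16955 ± 1982 CPM at day 0 and 5018 ± 493 CPM at day 5. Cd68, a lysosomal glycoprotein, was not called and went the other way, from 793 ± 19.8 to 1160.0 ± 109.95 CPM (log2 difference 0.55, adjusted p = 0.000204 by edgeR's quasi-likelihood test). All 8 osteoclast markers were called higher, and their sum went from 298 to 455 CPM at day 0 to 25092 to 28088 CPM at day 5. Stromal markers were also present, at a sum of 14832 to 20330 CPM at day 0 and 10490 to 11464 CPM at day 5. Most of that sum was Col1a1 and Col1a2, at 7486 ± 1708 and 7052 ± 858 CPM at day 0. Dcn and Lum lay under the filter and went the other way, from 2.04 and 0.338 CPM to 4.29 and 0.956 CPM. Pdgfra was not called, at a log2 difference of 0.23. The part of stromal cells in the results below was not tested. The lymphocyte markers Cd79a, Ms4a1 and Nkg7 summed to 0.144 CPM or less in every library.

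Of the 10 receptor genes, 7 were called lower at day 5 than at day 0 and none was called higher. The 7 were Marco, Stab1, Cd163, Mrc1, Cd36, Mertk and Msr1. At an unadjusted p under 0.05 (edgeR) the count of higher receptors was also 0 and that of lower receptors was 9. DESeq2 and limma called 0 higher and 7 lower. Axl and Tyro3 were tested and not called, and Timd4 lay under the filter on low values. A gene was tested where its FPKM (fragments scaled for gene length and library depth) reached 1 in 3 or more libraries. It was called at an adjusted p under 0.05 together with a log2 difference, day 5 minus day 0, of at least 1 in size. Cd163 reached the FPKM limit only at day 0, so its place among the tested genes depended on the day where it was higher. In a fit without the filter the log2 difference of Cd163 was -2.65 (adjusted p = 6.07e-07, edgeR). Among all 11908 genes tested, 6.47% were called lower and 5.84% were called higher. Without the size threshold, all 9 tested receptors were lower at an adjusted p under 0.05, as were 28.8% of all tested genes. For Tyro3 this did not hold in several alternative fits, given below. A fall of at least 2 on the log2 scale was seen for 6 of the 9 tested receptors and for 1.37% of all tested genes. The median log2 difference was -2.23 over the 9 tested receptors and -0.0041 over all tested genes. The CPM of every day 0 library was above that of every day 5 library for each of the 9, as it was for 32.2% of all tested genes. In RNA from whole cultures, fewer cells of a type and less RNA per cell cannot be told apart.

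**Figure D1:**
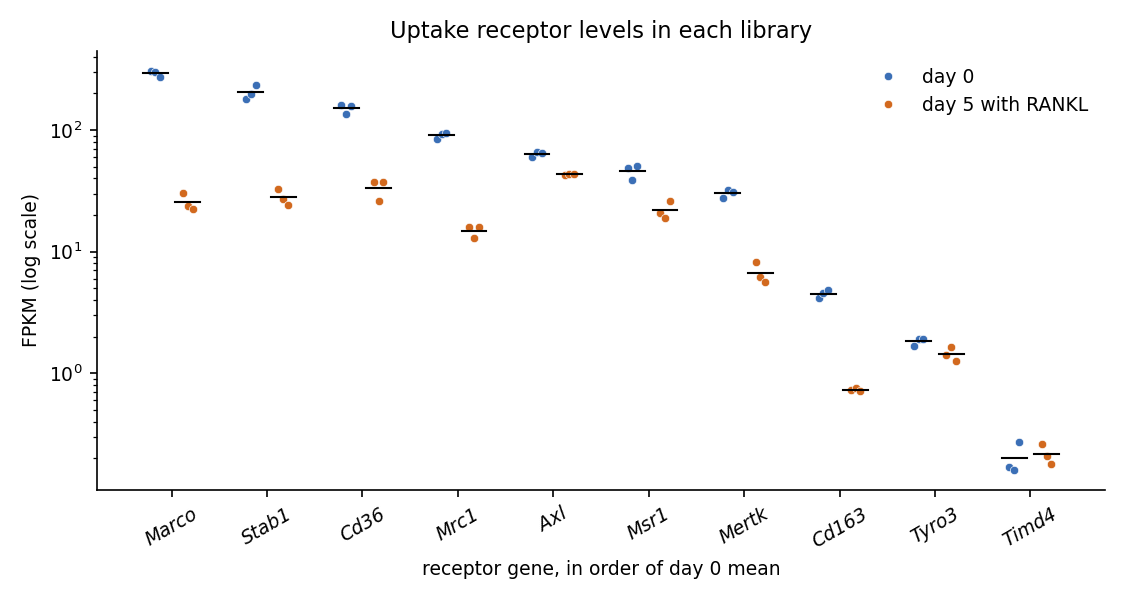
FPKM of the 10 receptor genes on a log axis, in order of their day 0 mean. Each point is 1 library (blue for day 0, orange for day 5) and each line is a mean of 3. Marco had the highest day 0 mean, 294, and lay between 22.6 and 30.5 at day 5, while Axl lay between 43.1 and 43.8 at day 5.

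The sequences before the start sites of 4 of these genes are shown because Marco and Stab1 had the largest falls of the set, and because Mertk and Axl, members of one kinase family, were on different sides of the call. Each is the 250 bases before the RefSeq transcript start in build GRCm38.p6. The Marco stretch is chr1:120505025-120505274 and the Stab1 stretch is chr14:31168642-31168891, both on the minus strand. The Mertk stretch is chr2:128698665-128698914 on the plus strand and the Axl stretch is chr7:25788734-25788983 on the minus strand. Capitals mark matches, on either strand, to the motifs named after the sequences.
Marco: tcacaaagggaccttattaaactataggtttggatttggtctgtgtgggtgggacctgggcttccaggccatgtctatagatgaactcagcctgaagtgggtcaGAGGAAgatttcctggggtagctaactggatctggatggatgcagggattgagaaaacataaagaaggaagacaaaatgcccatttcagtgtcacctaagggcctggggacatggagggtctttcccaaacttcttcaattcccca
Stab1: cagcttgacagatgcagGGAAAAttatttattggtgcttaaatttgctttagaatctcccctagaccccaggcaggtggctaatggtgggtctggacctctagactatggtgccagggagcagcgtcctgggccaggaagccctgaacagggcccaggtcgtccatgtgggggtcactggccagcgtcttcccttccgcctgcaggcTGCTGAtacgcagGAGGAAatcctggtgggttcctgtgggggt
Mertk: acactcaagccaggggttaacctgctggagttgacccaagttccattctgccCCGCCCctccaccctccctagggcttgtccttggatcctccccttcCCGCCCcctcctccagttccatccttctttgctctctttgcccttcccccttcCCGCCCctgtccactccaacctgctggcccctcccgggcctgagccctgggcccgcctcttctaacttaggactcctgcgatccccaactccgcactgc
Axl: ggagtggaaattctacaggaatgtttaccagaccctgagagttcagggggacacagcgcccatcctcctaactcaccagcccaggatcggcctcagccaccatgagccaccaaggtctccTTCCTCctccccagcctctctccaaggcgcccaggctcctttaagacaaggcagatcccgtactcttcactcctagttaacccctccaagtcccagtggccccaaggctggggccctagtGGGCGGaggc
The letters searched on both strands were GAGGAA (the core bound by PU.1, the master factor of myeloid cells), TGCTGA (the half-site of the MAF factors), GGGCGG (the GC box), GGAAAA (an NFAT core), TGANTCA (AP-1), CACGTG (the E-box of MITF and TFE factors), GAAANNGAA (an interferon response core), GGGNNTTCC (NF-kB) and TATAAA (the TATA box). Of the 10 genes, 9 had a RefSeq promoter entry. The PU.1 core was found before 4 of these 9 genes, Marco, Stab1, Mrc1 and Axl, against 23.3% of all 32851 promoters. In the Stab1 stretch it begins 30 bases before the start, with a MAF half-site at 43 bases. The MAF half-site was found before 3 of the 9, Stab1, Cd36 and Timd4, against 16.1% of all promoters. The GC box was found before 5 of the 9, with 3 copies each before Mertk and Tyro3, against 32.7%. The NFAT core was found before Stab1, Cd36 and Mrc1, against 20.4%. In the Mrc1 stretch that core overlaps the 1 NF-kB match of the set (4.98% of all promoters), and the 1 match to the interferon core was before Timd4 (7.13%). AP-1, the E-box and the TATA box had no match before the 9 genes, against 6.75%, 6.02% and 12.4% of all promoters. Such a match is a run of letters and not a measured binding site. The Cd36 stretch (chr5:17835897-17836146) and the Tyro3 stretch (chr2:119799264-119799513) lie inside the deposited spans of these genes. Their matches are thus before a RefSeq start within the gene and not before the whole span. The Marco and Cd163 stretches held 0 CpG dinucleotides and the Tyro3 stretch held 24, where the median promoter holds 6.

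Marco, a class A scavenger receptor with a collagen-like stalk that binds bacteria and inert particles, had the largest fall of the set. At day 0 its FPKM was 307, 302 and 272, and at day 5 it was 30.5, 23.9 and 22.6. The lowest day 0 library was far above the highest day 5 library. Its log2 difference was -3.58 ± 0.12 (SE, n = 3 per day, adjusted p = 2.22e-09 by edgeR's quasi-likelihood test), so that 8.38% of the day 0 level was left. Of the 11908 tested genes it had the 18th lowest log2 difference. The gene (ENSMUSG00000026390) lies on chromosome 1, 120474538 to 120505024, on the minus strand. The deposited coordinates of all 10 genes match GENCODE M21 for mouse build GRCm38, where each is protein-coding.

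Msr1, the class A receptor that takes up acetylated lipoproteins, had the smallest of the 7 called falls. Its FPKM was 49.1, 38.9 and 50.4 at day 0 and 20.9, 18.8 and 26.1 at day 5. The days did not overlap, although replicate 2 was the lowest library on each day. The log2 difference was -1.14 ± 0.13 (adjusted p = 1.80e-05), close to the size threshold, and 45.5% of the day 0 level was left. In fold terms Marco fell 11.9-fold and Msr1 2.20-fold, a difference between the 2 class A receptors that was not tested.

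Stab1, encoding stabilin-1, which takes up modified lipoproteins and matrix fragments, had the most counts of the set. It had 125333, 152679 and 205696 counts at day 0 and 25570, 20558 and 18397 at day 5, or 204 ± 26.9 FPKM and 28.0 ± 4.47 FPKM (SD, n = 3). The day 0 libraries spread widely, and the lowest of them was still well above the highest day 5 library. The log2 difference was -2.92 ± 0.14 (adjusted p = 1.50e-08), a 7.59-fold fall. Stab1 (chromosome 14, 31139013 to 31168641, minus strand) shares 112 bases at its end with Nt5dc2 on the opposite strand, so a small part of its counts is uncertain where counting ignored strand.

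Mrc1, the mannose receptor CD206, which binds sugar-capped glycoproteins and collagen, had an FPKM of 84.1, 92.9 and 94.3 at day 0 and 15.9, 12.9 and 16.0 at day 5. Its log2 difference was -2.66 ± 0.09 (adjusted p = 2.40e-09), a 6.33-fold fall. Cd163, the receptor that removes haemoglobin bound to haptoglobin, was far scarcer, with an FPKM of 4.15, 4.53 and 4.82 at day 0 and 0.73, 0.76 and 0.71 at day 5. It fell 6.39-fold (log2 -2.68 ± 0.11, adjusted p = 5.88e-09). The 3 libraries of a day lay close together for both genes. On the log2(FPKM + 1) scale the log2 difference of Cd163 was -1.66, since a pseudocount of 1 exceeds its day 5 level.

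Stab1 and Mrc1 are also made by sinusoidal endothelial cells. Of 9 endothelial markers 1 was above the filter, Cdh5, the vascular cadherin, and it fell 2.38-fold, a call that limma on log2(FPKM + 1) did not make (log2 -0.58). Cdh5 passed the filter through its day 0 libraries alone, so its passing already implied a higher day 0 level. The list summed to 20.8 to 22.5 CPM at day 0 and 9.26 to 10.9 CPM at day 5. Lyve1 and Stab2, which mark sinusoidal and lymphatic endothelium, had 0.0752 ± 0.0329 and 1.32 ± 0.546 CPM at day 0. The part of such cells in the falls of Stab1 and Mrc1 was not tested.

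Cd36, the class B scavenger receptor, takes up oxidised lipoproteins and long-chain fatty acids and binds thrombospondin. Its FPKM was 161, 136 and 157 at day 0 and 37.2, 26.0 and 37.6 at day 5. The days were well apart, and replicate 2 was the lowest library on both. The log2 difference was -2.23 ± 0.14 (adjusted p = 1.33e-07), a 4.70-fold fall. Adipocytes also make Cd36, and all 3 adipocyte markers above the filter, Pck1, Cidec and Adipoq, were called lower. All 3 reached an FPKM of 1 only at day 0, so passing the filter already implied a higher day 0 level. The 6 adipocyte markers summed to 21.3 to 30.4 CPM at day 0 and 1.21 to 1.33 CPM at day 5, and Lep had no count at day 5. Their part in the fall of Cd36 was not tested.

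Of the TAM kinases, Mertk was called lower and Axl and Tyro3 were not called. Mertk, which drives the engulfment of dying cells by macrophages, had an FPKM of 27.9, 31.9 and 31.0 at day 0 and 8.23, 6.18 and 5.67 at day 5. It fell 4.70-fold (log2 -2.23 ± 0.13, adjusted p = 7.44e-08). Axl, the TAM receptor that depends on Gas6, had an FPKM of 60.0, 66.1 and 64.9 at day 0 and 43.1, 43.2 and 43.8 at day 5. Its libraries were closely grouped on each day and did not overlap between days. The log2 difference of Axl was -0.62 ± 0.06 (adjusted p = 9.46e-06), larger than the spread between replicates but under the size threshold. Tyro3, the TAM receptor best known from the nervous system, was low throughout, with an FPKM of 1.67, 1.90 and 1.90 at day 0 and 1.42, 1.64 and 1.26 at day 5. Its log2 difference was -0.40 ± 0.13 (adjusted p = 0.0251). The adjusted p was 0.0789 and 0.0813 without day 0 replicates 2 and 3, and 0.0599 and 0.0889 without day 5 replicates 1 and 3. Without the filter (edgeR) it was 0.0631, and in limma on log2(FPKM + 1) and on log2(FPKM + 0.1) it was 0.0666 and 0.0707. It stayed under 0.05 in the remaining settings that tested Tyro3.

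Ratios of counts taken within each library do not depend on library scaling. The log2 ratio of Axl to Mertk was 1.32, 1.27 and 1.28 at day 0 and 2.60, 3.02 and 3.16 at day 5, a change of 1.64. The ratio was higher in every day 5 library than in any day 0 library. The log2 ratio of Mertk to Tyro3 went from 3.53 ± 0.0231 to 1.69 ± 0.312 (SD, n = 3), a change of -1.84, again with no overlap. The log2 ratio of Axl to Tyro3 was 4.82 ± 0.0377 at day 0 and 4.62 ± 0.198 at day 5, with overlapping days. In exact two-sided permutation tests over the 3 pairs of genes, p was 0.1 for both ratios with Mertk, the smallest that 3 against 3 libraries allow, and 0.2 for Axl to Tyro3. Adjusted over the 3 pairs these were 0.15, 0.15 and 0.2, so no pair passed in this design. By FPKM, Mertk made up 31.6% ± 0.411 of the summed TAM transcripts at day 0 and 12.98% ± 2.33 at day 5, while Axl went from 66.5% ± 0.438 to 84.2% ± 2.35. Fibroblasts also make Axl, and of the 7 stromal markers tested 1 was called lower, Cxcl12, a chemokine, which fell 2.74-fold. At an unadjusted p under 0.05 (edgeR), 6 of the 7 were lower and 0 higher, with a median log2 difference of -0.61. At an adjusted p under 0.05, a stricter limit, 28.8% of all tested genes were lower. The stromal markers Dcn and Lum lay under the filter and were higher at day 5. The part of such cells in the level of Axl was not tested.

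**Figure D2:**
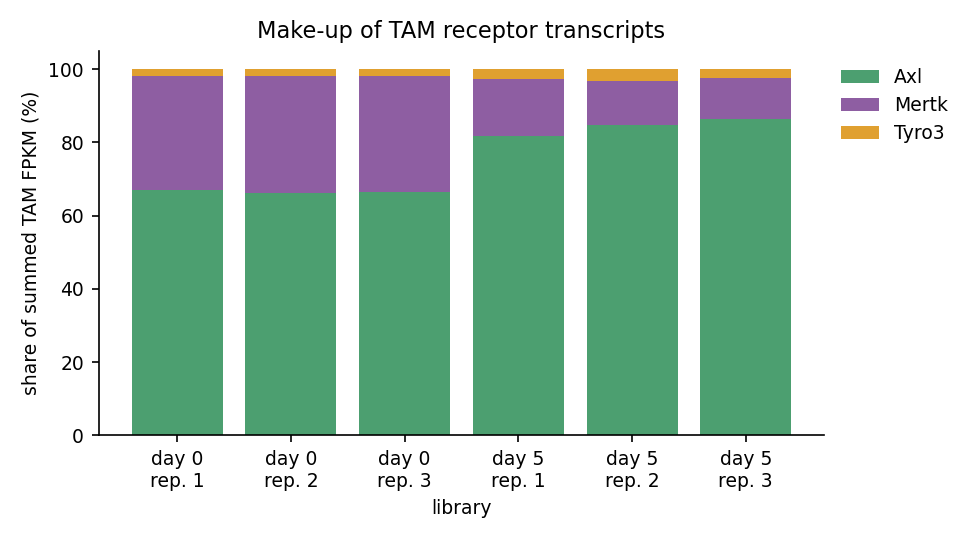
Share of the summed FPKM of Axl, Mertk and Tyro3 held by each gene in each of the 6 libraries, as stacked bars. Axl held 66.2% to 67.0% at day 0 and 81.7% to 86.3% at day 5.

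Timd4, a phosphatidylserine receptor of resident macrophages, was near the lower limit of these data. It had 26, 26 and 50 counts at day 0 and 43, 34 and 30 at day 5, an FPKM of 0.16 to 0.27 in every library. The days overlapped (exact two-sided permutation p = 0.8). In a fit without the filter on low values its log2 difference was 0.08 ± 0.42 (adjusted p = 0.925, edgeR), so a change of moderate size was not detectable at this depth.

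**Figure D3:**
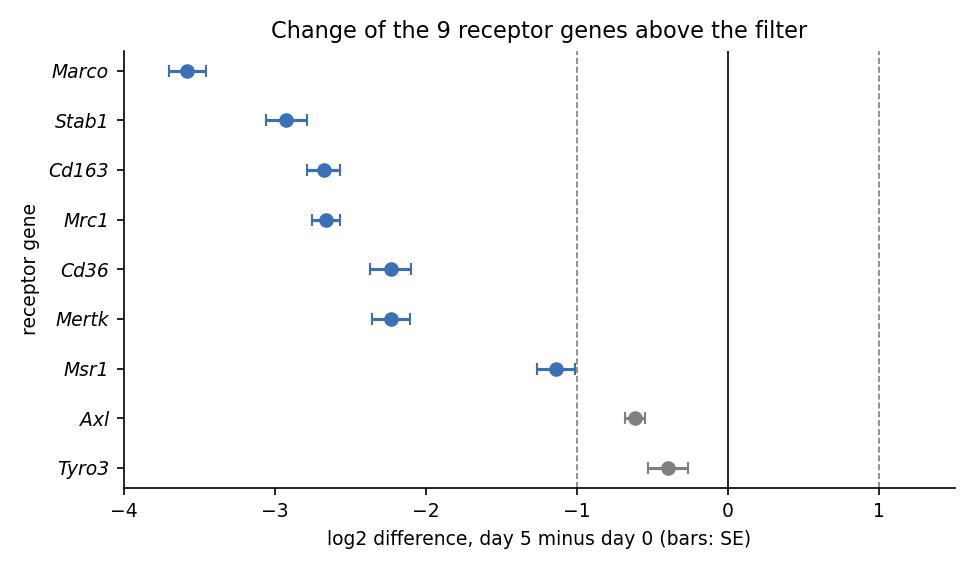
Log2 difference, day 5 minus day 0, of the 9 tested receptor genes with its SE from edgeR. Blue points were called lower, grey points were not called, and dashed lines mark a log2 difference of 1 in either direction. Marco lies lowest at -3.58, and Axl and Tyro3 lie between the dashed lines.

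The order of the receptors by FPKM, which corrects for gene length, differed between the days. At day 0 the order was Marco, Stab1, Cd36, Mrc1, Axl, Msr1, Mertk, Cd163, Tyro3 and Timd4, and no neighbours overlapped across the 3 libraries. At day 5 Axl had the highest FPKM in each library. Below it, Cd36, Stab1, Marco and Msr1 had means of 33.6, 28.0, 25.6 and 21.9 FPKM, and each overlapped its neighbour in this order. Mrc1, Mertk, Tyro3, Cd163 and Timd4 followed without overlap. The summed FPKM of the 10 genes was 875, 873 and 910 at day 0 and 191, 161 and 178 at day 5, a 5.02-fold difference (exact two-sided permutation p = 0.1, the smallest possible). Marco held 33.2% ± 2.89 of that sum at day 0 and 14.5% ± 1.66 at day 5. Axl held 7.19% ± 0.356 and 24.7% ± 2.17, and Msr1 held 5.20% ± 0.646 and 12.4% ± 1.97.

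The related genes were described by lists, read against the 6.47% and 5.84% of all tested genes called lower and higher. In counts over a list, fell and rose mean called lower and called higher. These shares do not apply to the counts at an unadjusted p under 0.05, for which the share of all genes was not computed. At an adjusted p under 0.05, a stricter limit, 6608 of the 11908 tested genes passed in either direction, and 28.8% were lower. Of 15 tested genes in a list of other scavenger receptors, 3 were called lower and none higher, with a median log2 difference of -0.51. Lrp1, a large endocytic receptor, fell 3.00-fold (4122 ± 465 to 1372 ± 150 CPM, adjusted p = 4.87e-07). Clec7a, the beta-glucan receptor Dectin-1, fell 2.65-fold, and Scarb2, a lysosomal membrane protein of the Cd36 family, 2.40-fold. At an unadjusted p under 0.05 (edgeR), 11 of the 15 were lower and 3 higher. Among the 3 was Scarf1, with a log2 difference of 0.87 ± 0.08 (adjusted p = 3.82e-06), named after its value was seen.

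Of 12 other tested receptors for phosphatidylserine and dying cells, 9 fell and 2 rose, with a median of -1.56. The falls included Fpr2, a formyl peptide receptor, 5.03-fold, and Cd300lb, an immune receptor that binds phosphatidylserine, 4.16-fold (148 ± 9.96 to 35.5 ± 4.61 CPM, adjusted p = 1.89e-08). The rises among the tested genes were the subunits of the integrin alpha-v beta-3, the vitronectin receptor of osteoclasts, which also binds dying cells through bridging proteins. Itgb3 rose 15.5-fold from 27.2 ± 4.05 to 422 ± 27.7 CPM (adjusted p = 7.91e-10), and Itgav rose 2.60-fold from 328 ± 53.7 to 853 ± 23.6 CPM. Itgb5, the alternative partner of alpha-v, fell 2.91-fold from 611 ± 42.6 to 210 ± 8.00 CPM. Adgrb1, encoding the phosphatidylserine receptor BAI1, lay under the filter on low values and was not tested. It had 0, 13 and 12 counts at day 0 and 356, 285 and 225 counts at day 5, so that every day 5 library was above every day 0 library. Adgrb1, Itgb5 and Itgav were named after their values were seen.

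Bridging molecules and opsonins also moved in both directions, with 6 of 14 lower and 3 higher and a median of -0.89. Gas6, the ligand of all TAM receptors, fell 4.04-fold from 640 ± 86.7 to 158 ± 4.26 CPM (adjusted p = 1.88e-08). Pros1, the other TAM ligand, had a log2 difference of -0.80 ± 0.07 (adjusted p = 3.58e-06), under the size threshold. Edil3, a secreted protein that links phosphatidylserine to alpha-v integrins, rose 4.71-fold from 52.1 ± 7.02 to 245 ± 19.9 CPM (adjusted p = 1.44e-08). C1qc, a chain of the first complement component, fell 4.35-fold, and Apoe, a lipid carrier, fell 4.17-fold. Thbs1, the thrombospondin that binds Cd36, fell 2.40-fold and is named for that role after its value was seen.

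The lists for engulfment, TAM signalling and signals that permit or block uptake held no called gene. None of the 21 genes of the engulfment machinery was called in either direction by edgeR, DESeq2 or limma, while 12 were lower and 2 higher at an unadjusted p under 0.05, with a median log2 difference of -0.32. Rab7, which directs phagosomes to lysosomes, was the most abundant by FPKM and had a log2 difference of 0.20 ± 0.06 (adjusted p = 0.0213). None of the 8 tested regulators downstream of TAM signalling was called by these tools, while 7 were lower at an unadjusted p under 0.05 (median -0.51). Grb2, an adaptor, was the most abundant of them at -0.21 ± 0.07. None of 7 tested genes of eat-me and don't-eat-me signalling was called either, while 4 were lower and 1 higher at an unadjusted p under 0.05 (median -0.45). Calr, encoding calreticulin, an eat-me signal on dying cells that Lrp1 recognises, was the most abundant at 0.11 ± 0.08, and Sirpa, the receptor for the don't-eat-me signal CD47, had a log2 difference of -0.82 ± 0.08 (adjusted p = 4.66e-06). Sirpa was named after its value was seen. Of 5 receptor sheddases, proteases that release receptors from the cell surface and their regulators, 1 was called lower, Adam8, which fell 2.24-fold. All 5 were lower at an unadjusted p under 0.05 (median -0.56).

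Of 13 tested regulators of uptake receptor genes, 5 were called lower and none higher, with a median of -0.51. At an unadjusted p under 0.05 (edgeR), 9 were lower and 4 higher. Maf, encoding the macrophage factor c-Maf, fell 5.23-fold from 222 ± 18.7 to 42.5 ± 4.43 CPM (adjusted p = 4.62e-09). Mef2c, a MADS-box factor, fell 4.46-fold. Spi1, which encodes PU.1, had a log2 difference of 0.93 ± 0.07 (adjusted p = 1.11e-06), higher at day 5 and under the size threshold, and was named after its value was seen.

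Of 12 genes of lipid uptake and handling, 2 fell and 2 rose, with a median of -0.44. Fabp4, a fatty acid carrier of macrophages and adipocytes, fell 6.07-fold from 44.0 ± 5.31 to 7.24 ± 1.30 CPM, and Lipa, the acid lipase, fell 2.69-fold. Abcg1, a sterol exporter, rose 2.57-fold from 20.6 ± 1.58 to 52.9 ± 1.63 CPM. The adipocyte marker sums given for Cd36 apply to Fabp4 as well. Of 8 tested genes of haem handling, the route after Cd163, 4 fell and none rose, with a median of -0.97. Slc40a1, the iron exporter ferroportin, fell 5.27-fold, Hmox1, the haem-degrading oxygenase, 3.46-fold, and Slc48a1, a haem transporter, 2.26-fold.

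**Figure D4:**
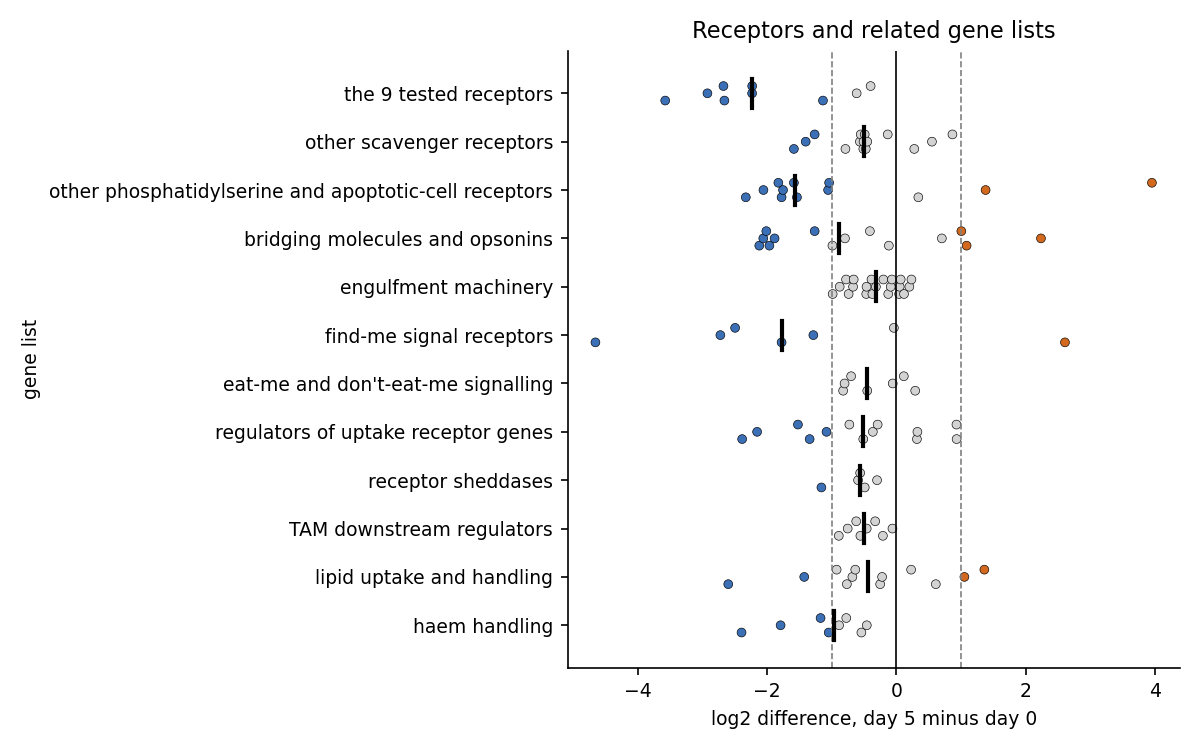
Log2 differences, day 5 minus day 0, of the tested genes of each list, 1 point per gene. Blue points were called lower, orange higher and grey neither, black bars are medians and dashed lines mark 1 in either direction. The 9 tested receptors have a median of -2.23, and the 21 engulfment genes lie between the dashed lines.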

How the data were processed

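Libraries were made, per the labels' protocols, from poly(A) RNA as strand-marked (dUTP) fragments and sequenced in pairs on a NovaSeq. Per the submitters' processing notes, fastp, HISAT2, StringTie and edgeR were used, and the build named there is GRCh38, a human assembly, while the table's identifiers and coordinates are those of mouse GRCm38. The sources used here do not say whether counting used the strand. The counts are whole numbers per gene that the authors deposited unnormalized, 64616609 to 82721513 per library. FPKM, as deposited, had been scaled for gene length and depth by the authors.

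Counts were fitted across all 11908 tested genes with edgeR 4.0.16 (quasi-likelihood test, TMM, R 4.3.3) with Benjamini-Hochberg adjustment. Genes tested had an FPKM of at least 1 in 3 libraries. Genes such as Cd163, Cdh5, Mef2c, Gpr34, Pck1, Cidec and Adipoq passed through day 0 alone, where they were higher. The SE is the log2 difference divided by the root of the F statistic. CPM used TMM-scaled totals. The fit was tested on simulated data. A chi-square test of counts found libraries of the same day to differ by at least 14.5 per degree of freedom, so none agreed within sampling noise. Alternatives used DESeq2 1.42.0, limma 3.58.1, other scalings and filters, the replicate number as a block and leaving out each replicate. Matplotlib 3.10.9 drew the figures.

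The receptors, lists and motifs were chosen with earlier results of these data known. All 10 receptors are named, from each list up to 3 called genes with the largest difference (otherwise its most abundant gene), and Gas6 and Pros1. A few genes picked in this way are not reported here. Of the listed genes, those without a row of the same name were not analysed here. Where a count of tested genes is given, the others of the list lay under the filter or were not analysed.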

Additional observations from a re-analysis of the deposited data

How the results depend on the processing

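All 7 falls among the receptors were also called with DESeq2, library totals without TMM, upper-quartile scaling, no filter, filterByExpr, limma on log2(FPKM + 1) and on log2(FPKM + 0.1), a replicate block and each of the 6 libraries left out. The exception is a filter at an FPKM of 5, which does not test Cd163 and Tyro3 and leaves 6. Leaving out 1 library gave log2 differences of -3.73 to -3.48 for Marco, -1.27 to -1.04 for Msr1, -2.42 to -2.12 for Mertk and -0.63 to -0.58 for Axl. Of the 68 called genes over all lists, receptors and markers included, 7 were not called under some alternative that tested them, namely Acsl1, Blvrb, C3, Cd14, Cd300lf, Cdh5 and Klf2. The count of genes called, 1465, became 2303 without a filter, 2366 with filterByExpr, 839 with the filter at 5, 964 in limma on log2(FPKM + 1), and 1446 to 1525 with 1 library left out. The log2 of the summed FPKM, day 5 over day 0, was -2.33 with all 10 genes and -1.97 without Marco. With a replicate block 1470 genes were called. Correlations of same-numbered libraries' deviations were -0.0751, 0.235 and 0.0640, and those of differently numbered libraries ran from -0.200 to 0.124. With 3 libraries a day, these values cannot decide whether equal numbers mark paired libraries. Counts of 50 or fewer per library limit Timd4, and 3 libraries a day limit every single exact test to p = 0.1.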

Other observations

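Receptors for the find-me signals that draw phagocytes to dying cells were also measured. Of 7 tested, 5 fell and 1 rose. Their median log2 difference was -1.78. Gpr34, a receptor for lysophosphatidylserine, fell 25.2-fold from 9.31 ± 1.70 to 0.367 ± 0.175 CPM (SD, n = 3, adjusted p = 1.99e-07 by edgeR's quasi-likelihood test), and Cx3cr1, the fractalkine receptor, fell 6.61-fold from 194 ± 26.5 to 29.4 ± 2.98 CPM. Gpr132, a receptor for lysophospholipids and lactate, rose 6.09-fold from 3.43 ± 0.868 to 20.9 ± 0.840 CPM (adjusted p = 2.65e-07).

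Genes whose pattern was among the most like that of Marco, by Euclidean distance of log2(CPM + 1) deviations over the 6 libraries, were Hpgd, a prostaglandin-degrading enzyme (distance 0.256), and Nxpe5 (0.355). Their log2 differences were -3.70 and -3.59.

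Within day 5, Marco, Stab1 and Mertk were highest in replicate 1, with FPKM of 30.5, 32.9 and 8.23, and the summed CPM of the macrophage markers was also highest there, at 8855 against 7528 and 7499. Msr1, Mrc1 and Cd36 were lowest in replicate 2. With 3 libraries a day, such an order was not tested. Of the remaining marker lists, the 5 neutrophil markers with a row summed to 2.52 to 6.07 CPM at day 0 and 5.38 to 15.4 CPM at day 5, with S100a9 and S100a8 called higher, and the 6 dendritic cell markers summed to at most 5.77 CPM in any library, with Flt3 at 0 in all 6.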
